A study of Drosophila melanogaster with 6 samples.

Results

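Of the 2394 intervals listed for the homeodomain protein Drgx on the 6 main chromosome arms, 376 (15.7%) had midpoints in protein-coding genes of intermediate length. These midpoints lay away from protein-coding gene ends. An interval was counted here when its midpoint was more than 500 bp from every protein-coding gene end and inside a protein-coding gene. The longest protein-coding gene that contained the midpoint, called the host, had to be over 10 kb and up to 30 kb long. These 376 intervals fell in 275 hosts, and the rule used gene positions and lengths only, not the score. They made up 29.4% of the 1280 intervals with such midpoints in protein-coding genes of any length.

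The list came from Targeted DamID of T4/T5 neurons, optic lobe cells that respond to motion in a preferred direction. Brains came from wandering third-instar larvae, with 3 samples that carried UAS-Dam and 3 that carried UAS-Dam-DRGX. Both groups carried R23G12-Gal4, the driver that sets which cells express the Dam transgene, together with UAS-CD8-GFP, a membrane marker, and tubGal80ts, a temperature-sensitive repressor of Gal4. Animals were kept at 18 °C and moved to 29 °C for 24 h before whole brains were dissected. Any other brain cell in which the driver was active would be included in the profile. The deposited list names no sample, so neither library depth nor replicate spread accompanied any value, and no difference below was tested. Counts and medians carry intervals for counting error only.

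Drgx belongs to the Paired-like class of homeodomain proteins, which bind short AT-rich motifs. Dam methylates adenine in GATC motifs near the places where its fusion partner sits, so each interval is bounded by the spacing of these motifs and is broader than a single binding site. In fly developmental genes, introns are known to hold many enhancers, and enhancers of a gene can also lie inside a neighbour. The gene table used here gives no exons and no strand, so whether a midpoint lay in an intron, an exon or a UTR, and which end of the host is its start, was not analysed here. The host names the gene around an interval, not a gene shown to respond to Drgx.

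The 275 hosts were 20.9% (Wilson 95% interval 18.8% to 23.2%) of the 1313 protein-coding genes of this length on the 6 arms. Of the other mid-length genes, 91 had a listed interval in their body or within 1 kb of it, and 947 had none. An interval near these 91 genes was either left out by the rule or counted for another gene. Among the 1313 genes, 72 had no base that the rule could accept and could not be hosts. Most hosts held 1 interval (202 genes), 52 held 2, 14 held 3 and 7 held 4. The 73 hosts with 2 or more together held 174 of the 376 intervals. The intervals covered 0.658 Mb, and in the median host they covered 11.3% of the gene. The largest covered share was 45.8%, at CG8405.

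Both the share of genes that held an interval and the density of intervals were higher in longer genes of the class. Among genes over 10 kb and up to 15 kb, 82 of 618 (13.3%, 10.8% to 16.2%) were hosts. The share was 21.4% (17.4% to 26.0%) from 15 to 20 kb, 30.5% (24.6% to 37.2%) from 20 to 25 kb, and 39.0% (31.5% to 47.1%) from 25 to 30 kb. A longer gene also offers more room, so intervals were counted per Mb of eligible bases, those that the rule could have accepted. This density was 15.1 per Mb in the shortest group, 19.7 and 19.96 in the middle ones, and 29.9 in genes over 25 kb. Density was thus also higher in the longest group when room was taken into account. It was not higher still in longer genes: genes over 30 kb and up to 60 kb had 23.7 intervals per Mb and genes over 60 kb had 17.0. Genes up to 10 kb had 6.27 per Mb.

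**Figure D1:**
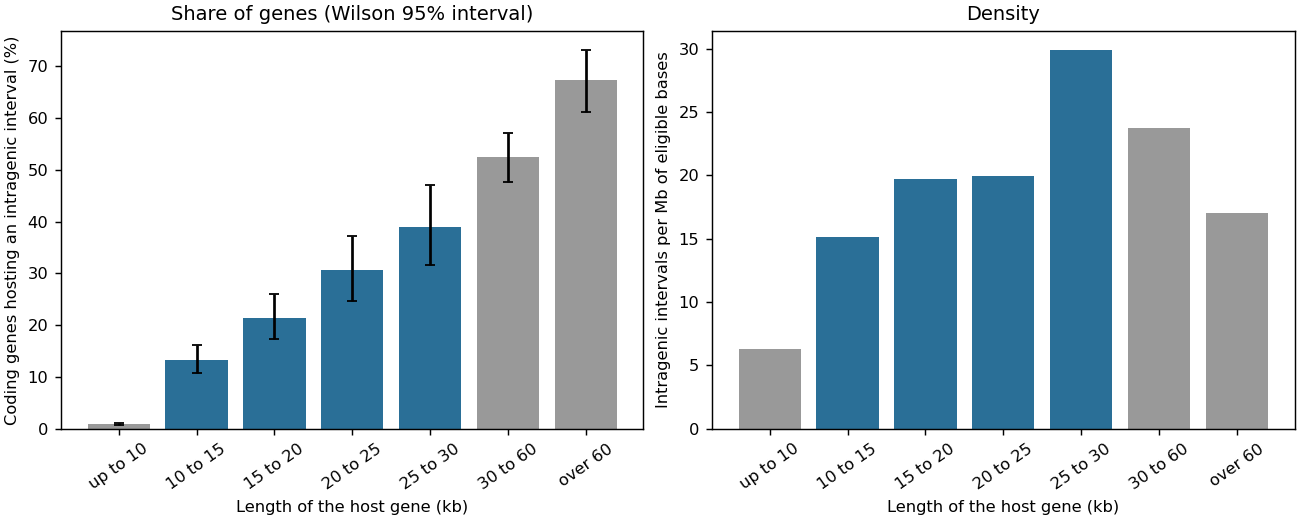
Left, the share of protein-coding genes in each length group (x axis, kb) that hosted at least 1 intragenic interval, with Wilson 95% intervals. Right, intragenic intervals per Mb of eligible bases; blue bars are the genes over 10 kb and up to 30 kb, whose density runs from 15.1 to 29.9, and grey bars are shorter and longer genes.

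Among the 7 hosts with 4 intervals were neur and numb, which regulate Notch signalling. In this pathway a cell carrying the ligand Delta activates the receptor Notch on its neighbour. The share of mid-length Notch pathway genes that were hosts was not counted, so no preference for them is read here. At neur (CG11988, 3R), an E3 ubiquitin ligase needed for Delta endocytosis, 4 intervals had scores of 3.32, 4.60, 3.83 and 3.49. At numb (CG3779, 2L), an inhibitor of Notch that is passed to 1 daughter cell in asymmetric divisions, 4 intervals scored 3.36, 4.33, 3.99 and 3.46. All 8 lay above the median of the 376 intervals. Delta itself (CG3619, 3R) held 1 interval, at 19317950 to 19319209, with a score of 4.34. The glycosyltransferase fng (CG10580, 3L), which modifies Notch, also held 1, but with a low score of 2.05.

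The score is the authors' own value for each interval, its scale is not stated, and it serves below to rank intervals within the list. For the 376 intervals it had a median of 2.86 (95% interval of the median 2.76 to 3.01), quartiles of 2.33 and 3.72, and a range from 1.44 to 5.82.

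Among the other hosts with 4 intervals, Sox21b (CG32139, 3L), which encodes an HMG-box transcription factor of the SoxB group, held the widest range of scores. Its intervals scored 5.32, 1.81, 3.64 and 5.02 from the lower to the higher coordinate, and the lowest of them was also the widest, at 2303 bp. At PRAS40 (CG46146, 2R), a regulator of TOR signalling also known as Lobe, the 4 intervals scored 4.39, 4.87, 3.96 and 4.45, all above the upper quartile of the whole list, 3.62. The other 3 hosts had lower scores: Naam (CG31216, 3R), a nicotinamidase, from 2.15 to 3.82, S (CG4385, 2L), which acts in the transport of EGF receptor ligands, from 2.55 to 3.63, and chn (CG11798, 2R), a zinc-finger protein of neural development, from 2.25 to 3.27.

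The 14 hosts with 3 intervals were arg, Alh, ssp3, CycE, Mnt, Drgx, unc-5, gogo, ena, l(3)neo38, pdm2, otk, Argk1 and Lerp. Cell cycle and growth regulators stood among them: at CycE (CG3938, 2L), which encodes Cyclin E, the driver of entry into S phase, the scores were 4.33, 4.96 and 4.05. At Mnt (CG13316, X), a partner of Max that opposes Myc, they were 2.51, 2.82 and 4.46. Thus all intervals of CycE scored high, whereas at Mnt only the narrowest, of 800 bp, did.

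Axon growth genes were also in this set. At unc-5 (CG8166, 2R), a Netrin receptor, the scores were 4.09, 3.01 and 2.20. At gogo (CG32227, 3L), a receptor that guides photoreceptor axons, they were 2.70, 2.07 and 4.02, and at ena (CG15112, 2R), which extends actin filaments, 2.75, 3.00 and 3.99. In each of these 3 genes the interval with the highest score was the narrowest. At otk (CG8967, 2R), a transmembrane protein of the PTK7 family, the scores lay closer together, from 3.02 to 3.79.

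**Figure D2:**
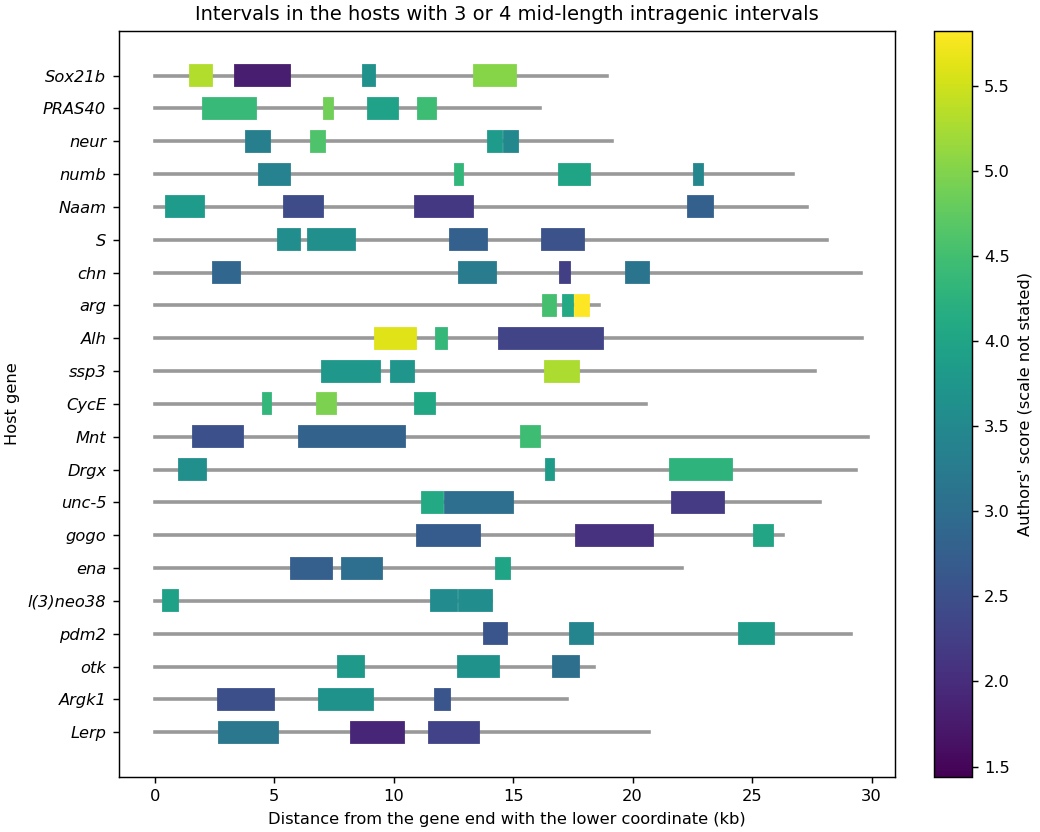
Gene bodies (grey lines) of the 21 hosts with 3 or 4 intervals, drawn to scale from the end with the lower coordinate (x axis, kb), with each interval as a box coloured by the authors' score. At arg the 3 intervals crowd near 1 end, and at numb the 4 intervals are spread along the gene.

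Intervals in hosts with 2 or more had a median score of 3.28 (2.98 to 3.49), and single intervals had 2.71 (2.59 to 2.85). Hosts with several intervals were longer, with a median of 22074 bp against 17661 bp. Their intervals were slightly narrower, with a median width of 1508 bp against 1614 bp, and narrow intervals scored higher throughout (below). The part of host length and width in the difference in score was not tested. Within a host, the highest and the lowest score differed by a median of 0.970 and by at most 3.51, at Sox21b. The closest midpoints within a host were 4382 bp apart in the median, and 607 bp apart at the least. Some neighbouring intervals shared a deposited false discovery rate, such as all those of PRAS40 (4.1e-24) and neighbours at CycE (6.9e-15) and arr (8.5e-12). The 376 intervals had 78 distinct values, some also shared between genes. Whether neighbours in a host were called as a single region was not tested, and each listed interval was counted separately.

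Of the intervals, 52.1% had another listed interval within 10 kb, and 10.4% within 1 kb. The median gap to the next listed interval was 9215 bp.

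The highest-scoring interval, with a score of 5.82 and rank 3 in the list, lay at arg (CG18104, arginase) on X at 527020 to 527628. It was the outermost of 3 intervals close to each other, and its midpoint lay 704 bp from the higher-coordinate end of arg. The gene arg overlaps elav, which encodes the pan-neuronal RNA-binding protein ELAV and spans 509235 to 523226. All 3 arg intervals lay outside elav, with midpoints 2715, 3491 and 4098 bp from its nearer end. A further gene, CG4293 (527941 to 530291), overlaps the other end of arg and lay nearer, at 2000, 1224 and 617 bp from the 3 midpoints. None of the midpoints lay inside elav or CG4293. The rule counts an interval for the longest protein-coding gene at its midpoint, which here was arg.

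A similar arrangement was seen at hng3 (CG13897, 3L), whose interval at 744713 to 746211 scored 5.40. This gene contains emc (749400 to 753492), which encodes an HLH protein that blocks proneural factors, and the midpoint lay 3938 bp from emc. In all, 97 of the 275 hosts (35.3%) overlapped another protein-coding gene, against 41.7% of mid-length genes. The latter include 72 genes that could not be hosts under the rule, and their part in this difference was not tested. For 68 intervals the nearest protein-coding gene end was not an end of the host, and at 16 midpoints a second protein-coding gene was present. One of these was VAChT, the vesicular acetylcholine transporter, which lies within ChAT, the acetylcholine synthase gene. T4/T5 neurons are cholinergic, and the interval shared by both genes, at 18708530 to 18709854 on 3R, scored 3.45. At 8 midpoints a non-coding gene was present.

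After arg, the highest scores were those of Alh (CG1070, 3R, 5.61), a homologue of the chromatin protein AF10, and dimm (CG8667, 2L, 5.57), a bHLH factor of peptidergic cells. The scores of 5.40 at hng3 and 5.32 at Sox21b, given above, followed. Scores between 5.28 and 4.82 were then found at ssp3, Ret, pico, CycE, Lim3, PRAS40, CG4629, Mrp5 and uzip, besides 5.02 at Sox21b. Ret encodes a receptor tyrosine kinase (4.99), pico a Lamellipodin-type regulator of actin (4.96) and uzip a cell adhesion protein (4.82). These 15 highest-scoring intervals lay on all arms except 4.

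The lowest scores were found at CG6424 (1.44), which shares both ends with CG46315, at MsR1 (1.50), a myosuppressin receptor, and at Brf (1.60), a TFIIIB subunit. Next came corn, Atpalpha, the catalytic subunit of the sodium pump, and sty, the FGF and EGF pathway antagonist Sprouty, with 1.69 each. The interval at MsR1 was also the widest, at 6665 bp, and the narrowest, of 276 bp, lay in Kdm4B, a histone demethylase, with a score of 3.25. The midpoint of this narrowest interval also lay inside CG17724 and seq. Of the 376 intervals, 109 (29.0%, 24.6% to 33.8%) reached that upper quartile, as did 25.3% of all intervals.

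Narrow intervals had the higher scores. Across the 376 intervals, Spearman's rho was -0.44 between score and width and -0.45 between score and the deposited false discovery rate. The 94 narrowest intervals, up to 1002 bp, had a median score of 3.61, and the 94 widest, from 2266 bp, had 2.44. Intervals share libraries and a caller that is not given in the sources used here, so these values are descriptions. With host length the score had a rho of 0.08, and with the distance to the nearer host end 0.06.

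**Figure D3:**
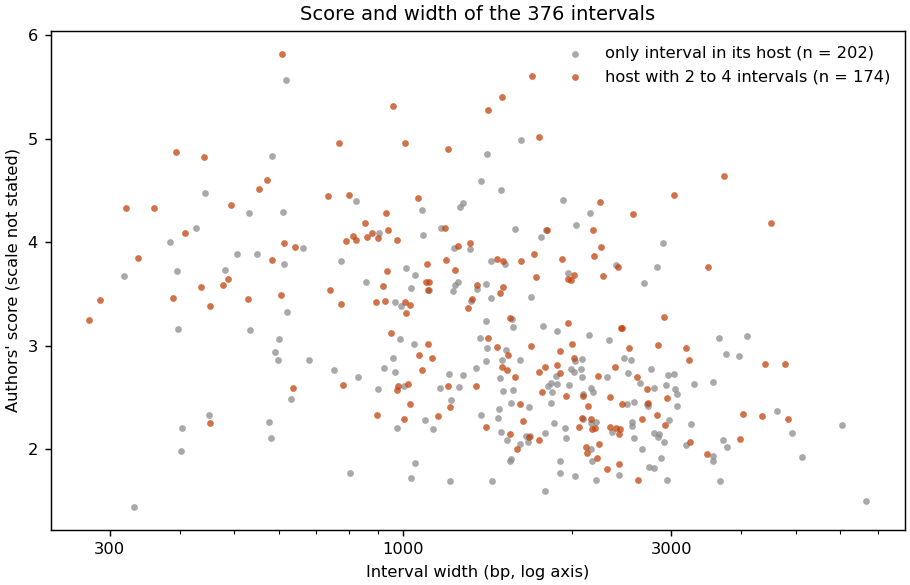
Width (x axis, bp, log axis) against the authors' score for each of the 376 intervals; orange points are intervals in hosts with 2 to 4 intervals, grey points are the only interval of their host. Most scores over 4 belong to narrower intervals, and the widest, 6665 bp, has a score of 1.50.

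Compared with other classes of the same list, mid-length genes stood out little in score. The median was 2.83 (2.73 to 2.90) for the 803 intervals in genes over 30 kb, 2.85 (2.57 to 3.11) for the 101 in genes up to 10 kb, and 2.86 (2.76 to 2.94) for the 802 intergenic intervals. These intervals of the median overlapped. The median width was 1560 bp (1484 to 1694 bp), below the 1842 bp (1732 to 1897 bp) of genes over 30 kb and above the 1258 bp (1124 to 1372 bp) of the 240 intervals at gene ends. Intergenic intervals had a median width of 1618 bp (1550 to 1687 bp).

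In base pairs, midpoints lay deeper inside the hosts than the eligible bases did. The median distance to the nearer host end was 5206 bp (4739 to 5847 bp), with a range from 549 to 14272 bp, and the median eligible base lay 4467 bp from an end. Over 8 kb from an end lay 24.5% (20.4% to 29.1%) of midpoints and 17.0% of eligible bases, and between 4 and 6 kb lay 17.8% (14.3% to 22.0%) against 23.5%. Distances over 8 kb occur only in the longer hosts, where the density of intervals was also higher, and the part of host length in this difference was not tested. When the distance was taken as a share of host length, 14.4% (11.2% to 18.3%) of midpoints lay within 10% of host length of an end, where the rule leaves 14.97% of the eligible bases. In the innermost group, from 40% to 50% of host length, lay 22.9% (18.9% to 27.4%) of midpoints and 21.2% of eligible bases. The shares of eligible bases in the groups between also fell inside the intervals of the midpoints, so this difference was not seen on the relative scale. Median scores ranged from 2.73 to 3.09 over the 5 groups, the highest in the outermost. Although midpoints had to be 500 bp from coding gene ends, 43 intervals (11.4%) reached to within 500 bp of a host end and 15 of them crossed it.

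**Figure D4:**
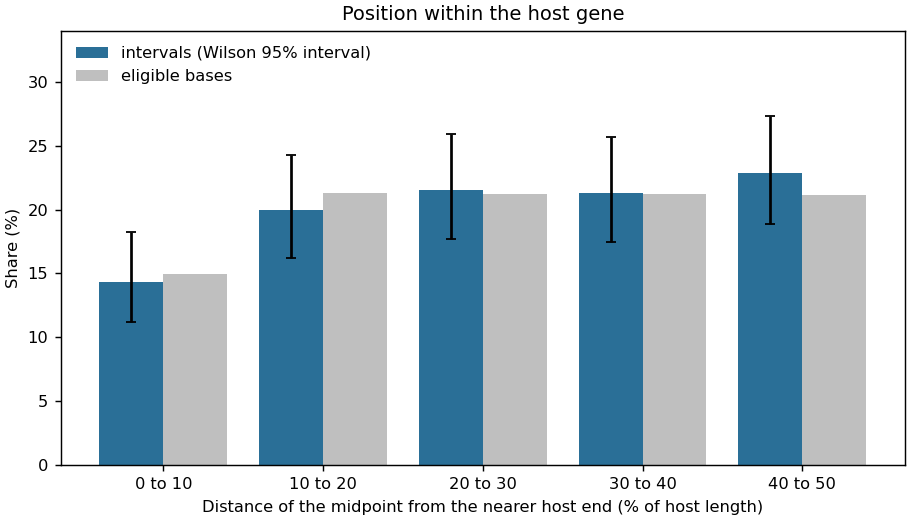
Share of the 376 midpoints (blue, Wilson 95% interval) and of eligible bases (grey) by distance from the nearer host end as a percentage of host length (x axis). In each group the grey bar lies within the interval of the blue bar, for example 22.9% against 21.2% in the innermost.

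By chromosome arm, 3R had the highest share of hosts. There 85 of 296 mid-length genes (28.7%, 23.9% to 34.1%) were hosts, against 18.6% to 19.0% on 2L, 2R, 3L and X and 5 of 33 genes on 4. Per Mb of eligible bases, 3R held 26.4 intervals, and these 4 arms held between 16.9 and 19.8. On arm 4 the density was 10.25 per Mb. The median score was 2.74 (2.59 to 2.86) for the 114 intervals on 3R, close to 2.81 (2.56 to 3.38) on 3L and 2.86 (2.62 to 3.16) on X. It was 3.02 (2.75 to 3.70) on 2R and 3.43 (2.76 to 3.63) on 2L, and the 5 intervals on 4 had the lowest median, 2.26.

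Gene lists drawn from general knowledge were set against the 20.9% of all mid-length genes that were hosts. Of the 278 mid-length genes on any list, 81 (29.1%, 24.1% to 34.7%) were hosts, and of the 1035 on none, 194 (18.7%, 16.5% to 21.2%). Listed genes were longer, with a median of 17470 bp against 14998 bp, and the part of length in the shares was not tested. Per Mb of eligible bases listed genes held 27.5 intervals against 17.8, with 20.1 over all mid-length genes. By list this density was lowest for ion channels and receptors (13.95) and highest for signalling genes (40.6). The other lists with genes of this length had from 23.1 to 35.3. The median of the highest score per host was 3.54 in listed hosts and 2.77 in the others. Membership of a list follows how well a gene is known, and the lists were written with earlier results of these data known, so nothing is called particular to any of them.

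**Figure D5:**
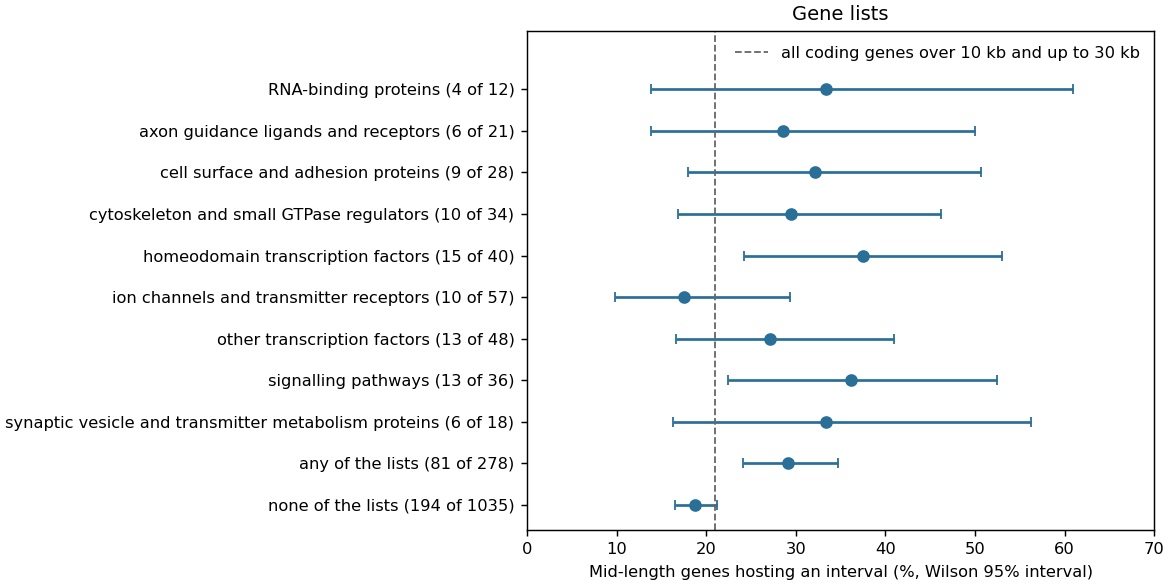
Percentage of the mid-length genes of each list that hosted an interval (points, Wilson 95% intervals; hosts and genes counted in parentheses), with the 20.9% of all mid-length genes as a dashed line. The error bars of the homeodomain list, the signalling list and all listed genes together lie above the line; those of every other list drawn span it, and the ion channel and receptor list has the lowest share among the lists, 17.5%.

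Of the homeodomain list, 15 of 40 mid-length genes were hosts (37.5%, 24.2% to 53.0%), with a median highest score of 3.76. One of the 15, eya, stands on the list although its protein, a cofactor and phosphatase of eye development, has no homeodomain. Without it 14 of 39 genes were hosts (35.9%, 22.7% to 51.6%), next to 36.1% of the signalling list. Drgx held 3 intervals with scores of 3.62, 3.85 and 4.27, but signal from the Dam-Drgx transgene and from the locus cannot be told apart in this list. The POU factor pdm2 (CG12287, 2L) held 3, at 2.57, 3.43 and 3.84. Lim3 (CG10699, 2L), a LIM factor of motor neurons, had scores of 4.90 and 3.57, and acj6 (CG9151, X), a POU factor present in T4/T5 neurons, 3.83 and 2.86.

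The remaining homeodomain hosts held 1 interval each. Scores over 4 were found at Rx (4.28), a retinal homeobox factor, and at the zinc-finger homeodomain gene zfh1 (4.14), and eya had 4.38. Scores of 2.96 to 3.76 were found at HGTX, oc, also known as orthodenticle, and Vsx1, which marks a spatial domain of the neuroepithelium that makes the medulla. Lower values stood at ap (2.58), abd-A (2.39), Hmx (2.33), ey (1.89), a Pax6 factor of eye and neuroblasts, and Ptx1 (1.75). The class thus spanned most of the range of the 376 intervals.

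Other transcription factors were hosts in 13 of 48 cases (27.1%, 16.6% to 41.0%). Besides Sox21b, Alh and dimm, these included TfAP-2 (CG7807, 3L), known as a marker of T4 neurons, with a score of 4.43 near 1 end of the gene and 2.29 near the other. The ETS factor Ets65A had 2.81 and 4.02, the Runt factor RunxB 3.64 and 3.39, and the corepressor nvy 3.57 and 2.91. Single intervals lay in crol (3.99), jumu (3.61), dsf (3.53), sd (2.70), the partner of Yorkie in the Hippo pathway, and Dif (2.16), and ss, known for its part in photoreceptor subtypes, had 2.62 and 2.15.

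Signalling genes were hosts in 13 of 36 cases (36.1%, 22.5% to 52.4%). They held 25 intervals, 40.6 per Mb of eligible bases against 20.1 over all mid-length genes. Beyond the Notch regulators and S, the Dpp pathway inhibitor Dad had 4.40, the FGF ligand pyr 4.31 and the ligand Wnt4 4.05. The Wnt coreceptor arr held 4.01 and 3.87, the JNK phosphatase puc 3.84 and 2.41, and Socs36E, an inhibitor of JAK/STAT signalling, 2.61 and 3.28. These hosts therefore included ligands, a coreceptor and feedback inhibitors of several pathways, with sd, fng and sty at the low end.

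Axon guidance genes were hosts in 6 of 21 cases (28.6%, 13.8% to 49.96%), namely unc-5, ena, pyr, Wnt4, drl and Eph. The Wnt5 receptor drl (CG17348, 2L) had 2.82 and 3.54, and the Ephrin receptor Eph had 4.48 with an interval of 444 bp on chromosome 4. Surface and adhesion genes were hosts in 9 of 28 cases (32.1%, 17.9% to 50.7%). Septate junction proteins scored highest among them, with 4.28 at Nrx-IV and 4.17 at Lac. Next were Nrt (3.89), otk (at most 3.79) and Fas1 (3.42 and 2.98). The recognition proteins DIP-eta (2.64), beat-IV (2.44) and dpr17 (2.26) and the cadherin kug (2.88) had lower scores.

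Among neuronal effector genes, transmitter enzymes and synaptic vesicle proteins were hosts in 6 of 18 cases (33.3%, 16.3% to 56.2%). These 18 genes were long, with a median of 22524 bp against 15537 bp over all mid-length genes. The part of length in this share was not tested. Gad1, the GABA synthase, had 3.95 and 3.38, and ChAT had 3.45 and 2.10. The calcium sensors Syt7 (3.68), Sytalpha (2.64) and Syt1 (1.92) and the fusion clamp cpx (2.29 and 2.21) followed. Ion channels and receptors were hosts in 10 of 57 cases (17.5%, 9.82% to 29.4%). They held 13.95 intervals per Mb of eligible bases, against 20.1 over all mid-length genes. Of these hosts, 9 encode G protein-coupled receptors, namely Dh31-R (4.19 and 2.34), ETHR (2.23 and 3.40), Octbeta1R (4.07), Dop1R2 (3.79), SIFaR (2.77), TkR86C (2.59), TkR99D (2.58), MsR2 (2.12) and MsR1. The tenth, the innexin ogre, had 1.98. How many of the 57 genes encode G protein-coupled receptors was not counted, so no preference for them is read from these hosts.

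Cytoskeletal genes were hosts in 10 of 34 cases (29.4%, 16.8% to 46.2%). Besides ena and the misplaced Wnt coreceptor arr, these were RhoGEF2 (4.29), beta-Spec (4.13), stai (3.43), RhoGAP93B (3.38), Map205 (3.19), pod1 (2.86), aPKC (2.42) and Frl (2.20). RNA-binding proteins were hosts in 4 of 12 cases (33.3%, 13.8% to 60.9%), HnRNP-K (2.86), orb (2.85), Sxl (2.17) and larp (2.09), all at or below the median score. None of the 8 Toll genes was of this length.

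At the limits of the rule, the shortest host was CG42337, at 10051 bp, with a score of 1.89, and the longest gene left out below it was jdp, at 9979 bp, with 2.45. The longest host was Pli, at 29891 bp, with 3.06, and the shortest gene left out above it was ham, at 30033 bp, whose 3 intervals had 4.96, 2.56 and 2.87. The midpoint nearest to a protein-coding gene end was that in sprt, at 535 bp, with a score of 4.59. The nearest left out was that in lbk, at 490 bp, with 1.83.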

How the data were processed

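The authors deposited 1 interval list for the 6 samples, without a header, and its columns name no sample. The deposited score has 2 decimals and no stated scale, and each interval has a deposited false discovery rate. Per the submitters' processing notes the genome build was BDGP6; the aligner, the peak caller, any filters and how replicates were combined are not given in the sources used here. Of 2396 intervals, 2 on Y were left out and 2394 were used (arms X, 2L, 2R, 3L, 3R and 4). Starts were raised by 1 from the zero-based BED convention. Gene positions were taken from RefSeq (Release 6), which has 13922 protein-coding genes on these arms.

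For each midpoint, the longest protein-coding gene that contains it was taken as host. Eligible bases are those of mid-length genes, as the longest gene there, over 500 bp from every protein-coding gene end. Shares carry Wilson 95% intervals, and medians carry 95% intervals from order statistics. No replicate value exists, so no test was made. The members and gene lists were chosen with earlier results of these data known. Listed symbols were matched to symbols, or to a synonym carried by 1 gene only, 898 genes in all, and Dl was written as Delta. Named genes are the hosts of the 15 highest-scoring and the 5 lowest-scoring intervals (6 with ties), hosts with 3 or more intervals, the hosts of extreme length or interval width, and hosts on a list. Genes named at the limits of the rule, for overlap with a host, as the most covered host, or in the closing observations (chromatin regulators, erm and pbl) fall outside it and were chosen after their values were seen. The planned share by distance from the start of the host and the planned promoter motif search need strand and sequence and were not made. The software was matplotlib 3.10.9, scipy 1.17.1, pandas 2.3.3 and numpy 2.4.6 under Python 3.11.15, and the rule was tested on simulated data.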

Additional observations from a re-analysis of the deposited data

How the results depend on the processing

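No paired analysis was possible because the list names no sample, and for the same reason no replicate could be left out. Each of 6 results was recomputed under 13 alternatives. Keeping the higher-scoring 50% of the list left 194 intervals in 147 hosts (11.2% of mid-length genes), with a median score of 3.69 and a median width of 1234 bp. A false discovery rate of at most 0.001 left 240 intervals in 182 hosts (13.9%), with a median score of 3.23. Hosts of 12 to 25 kb left 236 intervals in 180 hosts. These follow from keeping fewer intervals or genes. Without arm 3R the share of hosts was 18.7%. In the other alternatives, which were other margins, whole intervals, the shortest gene as host, joined intervals and leaving out 2L, 2R, 3L or X, counts stayed within 1.5 times and shares and medians within their 95% intervals. The median distance to the host end stayed within its interval in all 13, from 4902 to 5558 bp. Counting any gene that contains the midpoint gave 85 listed hosts in place of 81, and listed hosts of any length numbered 267 of 898 (29.7%). That share is not comparable with the 5.42% of all protein-coding genes, most of which are up to 10 kb long and rarely hosts. Leaving out the misplaced genes, chosen after seeing the data, gave 14 homeodomain and 9 cytoskeletal hosts. The depth behind the list is unknown.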

Other observations

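Hosts on none of the lists included several chromatin regulators, which were picked out after their values were seen and are given as values only. Polycomb group genes were represented by Psc (3.72) and ph-p (3.94), and trithorax group genes by trx (3.78) and Trl (3.79), which encodes the GAGA factor. The corepressor gene Sin3A held 2 intervals (3.82 and 2.70), simj, a subunit of the NuRD complex, held 3.51 and 4.04, and the histone demethylase gene Kdm4B held 3.25 and 4.06. Lower scores stood at Mi-2 (2.77), HDAC4 (2.62) and MTA1-like (1.83). The midpoint at Mi-2 also lay inside Su(Tpl), and the Kdm4B midpoint with 3.25 also lay inside CG17724 and seq. These are not all the chromatin genes among the hosts, and the share of such genes that were hosts was not counted.

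Also picked after their values were seen, the zinc-finger gene erm, known for its role in the maturation of intermediate neural progenitors, held intervals with scores of 2.99 and 4.19, and pbl, a RhoGEF of cytokinesis, held 1 with 4.50.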
